A study of Mus musculus with 30 samples.

Results

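The 2 arrays described here measured wild type mouse embryonic fibroblasts (MEFs) that received the p38 inhibitor SB203580 and no stress. They were chosen by the sample titles, as the first and second replicate of the group given SB203580 alone, and are 2 of the 30 arrays of the series. The cells were immortalised, and mouse embryonic fibroblasts are grown from the connective tissue of mouse embryos. Total RNA of the treated cells was labelled with Cy5 and hybridised to a 2-colour Agilent whole genome array, after 2 rounds of amplification, together with a Cy3-labelled pool of RNA from 2 cultures of untreated wild type MEFs. The titles give SB203580 as 10 mM for 2 h, whereas the protocol gives 10 μM added 30 min before the stress, and which of these holds for the unstressed cells cannot be told from the labels. The other wild type groups were stressed by anisomycin at 25 ng/ml or TNFα at 100 ng/ml, both for 45 min, or by NaCl at 100 mM, for which cells were taken at 45 min, 2 h and 8 h, and each stress was given without and with SB203580. A further 4 groups were p38α-/- MEFs, untreated or given anisomycin, TNFα or NaCl for 2 h. Each of the 15 groups had 2 arrays. The p38α-/- MEFs are another cell line than the wild type MEFs, and the pool of untreated wild type cells was the control on every array. No array had the dyes swapped, so a difference between the dyes, the content of the pool and an effect of SB203580 cannot be told apart in a ratio to the pool.

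The p38 kinases belong to the stress-activated MAP kinases, which cells switch on through upstream kinases when they meet osmotic shock, inhibitors of protein synthesis or inflammatory cytokines. p38α, encoded by Mapk14, phosphorylates downstream kinases such as MK2 and MSK1 and, through them and directly, transcription factors and proteins that bind AU-rich mRNAs. SB203580 occupies the ATP pocket of p38α and p38β and blocks their activity without removing the protein, and it is known to reach other kinases at higher doses. In unstressed fibroblasts p38 activity is low, so cells given SB203580 alone are the usual control for effects of the compound itself. p38 also restrains other MAP kinase branches through shared upstream regulators, and Jun and Fos, the founding members of the AP-1 transcription factors, are among the best known targets of those branches.

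Of 21689 named genes on the array, 15204 were measured on both SB203580 arrays. The remaining 6485 lacked a value because their spots were marked as outliers by the image software, which took 11.7% of spots on array 1 and 36.3% on array 2. Signals were well above background for 89.3% and 93.5% of the spots in Cy5, and for 96.9% and 97.6% in Cy3. The log2 ratios spread more widely on array 1 (SD over genes 0.61) than on array 2 (0.37), with medians of 0.03 and 0.00. On array 1, the spots in the lowest quartile of Cy3 signal were at least 1.5-fold above the pool in 22.9% of cases and below it in 20.1%. On array 2 these shares were 9.53% and 7.18%. In the highest quartile they were 19.1% and 21.5% on array 1, and 4.87% and 9.27% on array 2. The number of arrays, 2, limits the precision of every value. Array 1 and array 2 were scanned on different days, each together with the arrays of the same number of all other wild type groups. Mapk14 itself was read by 1 probe, with a log2 ratio of 0.70 on array 1 and an outlier spot on array 2, and was not tested. All 12 fibroblast markers examined, among them the collagens Col1a1 and Col3a1 and vimentin (Vim), were well above background on both arrays. So were the muscle markers Myod1 and Myh3, the adipocyte marker Fabp4 and the leukocyte marker Ptprc, and the summed Cy5 signal of the 7 muscle markers was 180127 on array 1 and 246812 on array 2, below their Cy3 signal in the pool of 245842 and 353211. Of the 33 marker genes tested over 7 cell types, 1 was called, the adipocyte lipid droplet gene Plin (Plin1), at -1.44 and -1.21, and the part of other cell types in the results below was not tested. In RNA from whole cultures, fewer cells of a type and less RNA per cell cannot be told apart.

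A gene was called when its mean log2 ratio differed from 0 with an adjusted p under 0.05 (limma, Benjamini-Hochberg over all 15204 genes) and it was at least 1.5-fold from the pool in the same direction on both arrays. With SB203580 alone 456 genes were raised, 3.00% of those tested, and 360 were lowered, 2.37%. Raised genes had mean log2 ratios from 0.62 to 2.71 with a median of 0.94, and lowered genes from -2.66 to -0.60 with a median of -0.95. The larger of the 2 ratios lay on array 1 for 408 of the raised and 260 of the lowered genes. At least 2-fold on both arrays were 49 raised and 95 lowered genes. The balance between the directions depended on how signals were corrected, since normexp background correction with loess gave 465 raised and 118 lowered genes. Keeping the spots marked as outliers gave 423 raised and 1007 lowered. Leaving out array 1 left 115 raised and 134 lowered genes, and leaving out array 2 gave 2258 and 1832, where the requirement of agreement falls away. At the edge of the rule, Pttg1 (0.73 and 0.59) and Csl (-0.66 and -0.58) were just inside it, and Rest (-0.81 and -0.58) and Gpr73 (0.95 and 0.58) just outside.

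**Figure D1:**
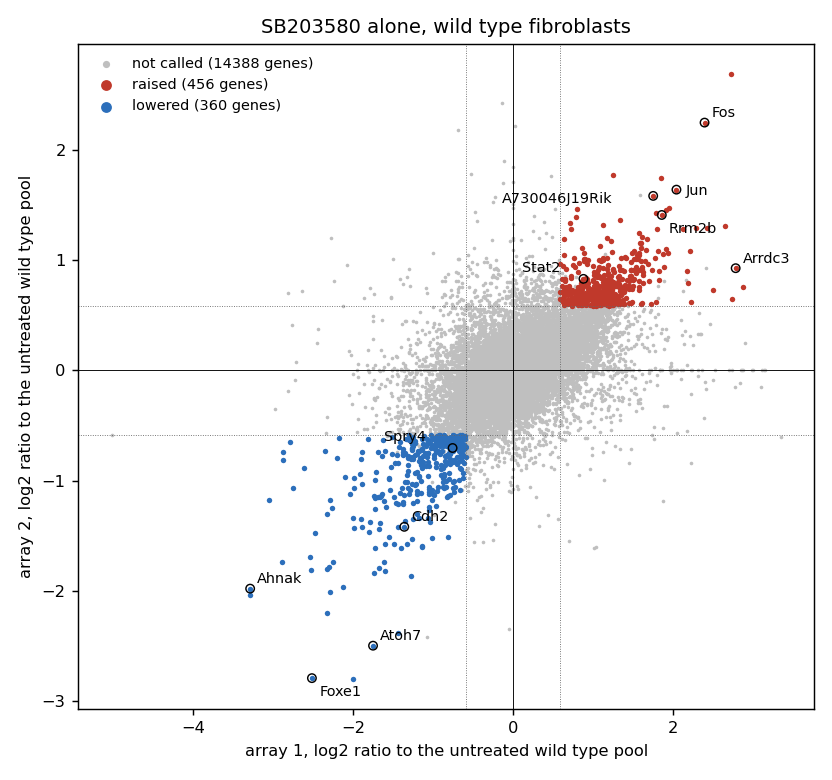
Log2 ratio to the untreated wild type pool on array 1 (x axis) and array 2 (y axis) of MEFs given SB203580 alone, 1 point per gene for 15204 genes; red points are the 456 raised genes, blue points the 360 lowered genes, dotted lines mark 1.5-fold. Fos lies at the top right with 2.40 and 2.25, Arrdc3 at the right with 2.79 and 0.93, and Ahnak and Foxe1 at the lower left.

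Among genes of the early response, which transcription switches on within minutes of a signal, Jun, Fos, Egr1, Btg1 and Rhob were raised. Fos, the AP-1 subunit that pairs with Jun, had log2 ratios of 2.40 and 2.25, a mean of 2.32 ± 0.11 (SD, n = 2, 5.00-fold, adjusted p = 0.00023 from limma). Its 2 values were alike, and both were above the untreated p38α-/- MEFs, at 0.91 and 0.09. Jun stood at 2.05 and 1.64. Egr1, a zinc finger factor driven by growth signals, had 0.65 and 1.19 (mean 0.92, adjusted p = 0.0144 from limma), and this call was lost when either array was left out. Its values in untreated p38α-/- MEFs, 0.42 and 0.76, overlapped these. Rhob, a small GTPase with a short-lived mRNA, had 1.32 and 0.80, and Btg1, which restrains proliferation, 0.98 and 0.73. These 5 were raised of the 20 early response genes tested, 25.0% against 3.00% over all genes, and none of the 20 was lowered. Without array 1, Jun and Fos kept their calls and Egr1, Btg1 and Rhob lost them, and Btg1 also lost its call with outlier spots kept. The list had a median log2 ratio of 0.31, against 0.01 over all tested genes, with a range from -0.76 to 2.32.

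Promoter sequences of Jun, Fos, Rhob and the MAP kinase phosphatase gene Dusp1 are shown because these raised genes are known targets of stress and growth signals. They are the 250 bases before the transcription start in RefSeq (GRCm38.p6), written 5′ to 3′ on the strand of the gene, and capitals mark a match to TGACTCA, TGACGTCA or TGACATCA on either strand. The Jun window lies at chr4:95052223-95052472 on the minus strand, that of Fos at chr12:85473640-85473889 on the plus strand, that of Dusp1 at chr17:26508473-26508722 on the minus strand and that of Rhob at chr12:8500010-8500259 on the minus strand.
Jun: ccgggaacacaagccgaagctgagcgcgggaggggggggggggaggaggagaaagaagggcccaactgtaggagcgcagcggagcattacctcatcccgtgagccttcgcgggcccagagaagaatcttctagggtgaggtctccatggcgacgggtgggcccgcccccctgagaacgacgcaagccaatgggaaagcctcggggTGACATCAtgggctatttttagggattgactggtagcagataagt
Fos: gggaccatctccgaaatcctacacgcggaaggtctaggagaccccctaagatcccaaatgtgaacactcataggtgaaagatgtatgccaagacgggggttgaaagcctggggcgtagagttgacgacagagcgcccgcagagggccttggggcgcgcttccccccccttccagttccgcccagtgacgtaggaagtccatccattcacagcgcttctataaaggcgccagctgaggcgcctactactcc
Dusp1: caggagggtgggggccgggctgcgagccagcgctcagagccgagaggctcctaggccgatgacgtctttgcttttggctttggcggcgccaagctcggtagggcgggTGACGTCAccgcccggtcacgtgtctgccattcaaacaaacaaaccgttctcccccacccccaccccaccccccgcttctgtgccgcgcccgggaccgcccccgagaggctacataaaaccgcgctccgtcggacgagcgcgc
Rhob: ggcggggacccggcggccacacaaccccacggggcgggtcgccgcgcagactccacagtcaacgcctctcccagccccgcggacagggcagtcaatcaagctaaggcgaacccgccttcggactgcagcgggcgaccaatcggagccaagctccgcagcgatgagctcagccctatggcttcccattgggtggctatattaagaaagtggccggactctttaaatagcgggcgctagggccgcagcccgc
The Jun window held TGACATCA from 45 to 38 bases before the start, and the Dusp1 window TGACGTCA from 143 to 136 bases before it. The windows of Fos and Rhob held none of these 3 motifs, and the GC box GGGCGG occurred in all 4. Of all 27025 genes with a promoter in the table, TGACTCA was found in 5.16%, TGACGTCA in 1.77%, TGACATCA in 3.41% and GGGCGG in 35.4%. Of the 456 raised genes, 335 had a promoter, and the shares were 4.78%, 2.69%, 2.69% and 58.2%, whereas among the 10698 tested genes with a promoter they were 4.65%, 2.42%, 2.87% and 50.7%. The E-box CACGTG was found in 12.8% of the raised, 8.13% of the lowered and 8.31% of the tested genes, and the xenobiotic element GCGTG in 44.8%, 43.5% and 40.4%. The serum response element CArG was found in 0.597%, 1.63% and 1.42%. Each motif was searched on both strands, none contains another, and these shares describe letters in a window and carry no test.

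Genes that feed back on MAP kinases moved in both directions. Dusp1, a phosphatase that inactivates p38 and JNK in the nucleus, was raised, with log2 ratios of 1.10 and 0.62 (mean 0.86 ± 0.34, SD, n = 2, adjusted p = 0.00176 from limma). Its values in untreated p38α-/- MEFs, 0.66 and 0.31, overlapped these. Dusp10, a phosphatase with the same substrates, was raised as well, at 1.33 and 0.76. Both calls were lost without array 1, and that of Dusp10 also with normexp. Spry4, an inhibitor of growth factor signalling to ERK, was lowered, at -0.76 and -0.70 (mean -0.73 ± 0.04, SD, n = 2, adjusted p = 0.0329 from limma). Its 2 probes differed, with means of -1.28 and -0.18, and its call was lost under normexp correction and when either array was left out. These were 15.4% raised and 7.69% lowered of the 13 tested genes, against 3.00% and 2.37% over all genes. The other 10 did not meet both criteria, among them Spry2 (0.52 and 0.45) and Dusp4 (-0.39 and -0.33). The list's median was 0.19.

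Of the p38 cascade itself, from upstream kinases to substrates, 21 of 27 genes were tested. None was raised and 1 was lowered (4.76%), against 3.00% raised and 2.37% lowered over all genes, and the median was -0.02. At an adjusted p under 0.05 alone, without a size, 4 of the 21 were higher and 6 lower (limma). Over all genes 14.7% were higher and 11.8% lower. At an unadjusted p under 0.05 (limma) 11 of the 21 passed, and no share over all genes is given at that threshold. The lowered gene was Mef2a, a transcription factor that p38 phosphorylates, at -0.93 and -0.62 (adjusted p = 0.00109 from limma). Its call was lost with normexp, with the brightest probe in place of the mean of probes and without array 1. Mapkapk2, which encodes MK2, had -0.38 and -0.52, Mapk11, which encodes p38β, 0.05 and -0.01, and Atf2, another substrate, 0.39 and 0.39. None of these 3 reached 1.5-fold on either array. Among the kinases of the ERK and JNK cascades, Map3k1 (0.75 and 0.63) and Map3k8 (1.42 and 0.66) were raised of 14 tested (14.3%, against 3.00% over all genes), both being upstream kinases of those branches, and none was lowered. Both calls were lost without array 1, and that of Map3k8 also with normexp.

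Of 15 tested genes of the interferon response and antigen presentation 5 were raised (33.3%, against 3.00% over all genes) and none was lowered, with a median of 0.49. They were the interferon signalling factor Stat2, the guanylate-binding protein gene Gbp2, the light and heavy chain genes of class I histocompatibility molecules B2m and H2-K1, and the chemokine gene Cxcl10. Stat2 had 0.88 and 0.83, a mean of 0.86 ± 0.04 (SD, n = 2, adjusted p = 0.000158 from limma). B2m had 1.52 and 1.01, H2-K1 1.37 and 0.74, Gbp2 0.73 and 0.66, and Cxcl10 1.82 and 0.82. Without array 1, Stat2 and B2m kept their calls and the other 3 lost them. Gbp2 also lost its call without array 2, and Cxcl10 with normexp and with the series matrix. The ratios to the same pool were not low elsewhere, at 1.97 for H2-K1 in untreated p38α-/- MEFs and 0.89 for B2m over the 5 stresses. Cxcl10 had 2.35 and 0.20 in the untreated p38α-/- MEFs. Of 24 tested AU-rich inflammatory mRNAs and NF-κB targets, Cxcl10 was the 1 raised (4.17%, against 3.00% over all genes) and none was lowered, and the list's median was 0.02.

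Among the remaining lists, Tiparp, a target of the aryl hydrocarbon receptor, was raised at 1.24 and 0.78 of 7 tested genes. Axin2, a Wnt target, was raised of 13 tested at 1.62 and 0.79, the heat shock factor Hsf1 of 11 at 1.46 and 0.61, and the p53 target Pmaip1 of 7 at 1.26 and 0.65. Dhcr7 (1.25 and 0.59) and Sc5d (1.26 and 0.79), enzymes of the last steps of cholesterol synthesis, were raised of 16 tested sterol genes. Thbs1, a matrix glycoprotein gene of the SRF and actin list, was lowered at -1.03 and -0.71 of 8 tested, and Tgfb3, a TGF-β ligand, at -1.07 and -1.34 of 19 tested matrix genes. Over all genes 3.00% were raised and 2.37% lowered. Tiparp and Tgfb3 lost their calls under none of the 10 alternatives that kept the thresholds, and the other 6 genes named here lost theirs without array 1. Hsf1, Pmaip1 and Thbs1 also lost theirs with normexp, Hsf1 and Sc5d with outlier spots kept, and Hsf1 with the series matrix. No member was called among Nrf2 targets (7 tested), clock genes (9), integrated stress response genes (4), genes of G1/S and replication (17), genes of mitosis (14) and osmolyte genes (7). At an adjusted p under 0.05 alone (limma) these 6 lists had 4, 1, 1, 7, 6 and 1 members. At that threshold 14.7% of all genes were higher and 11.8% lower. Within the replication list 6 of the 7 were higher than the pool, and within the mitosis list 3 of the 6. At an unadjusted p under 0.05 (limma) the 6 lists had 4, 2, 1, 10, 8 and 1 members, and no share over all genes is given there.

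**Figure D2:**
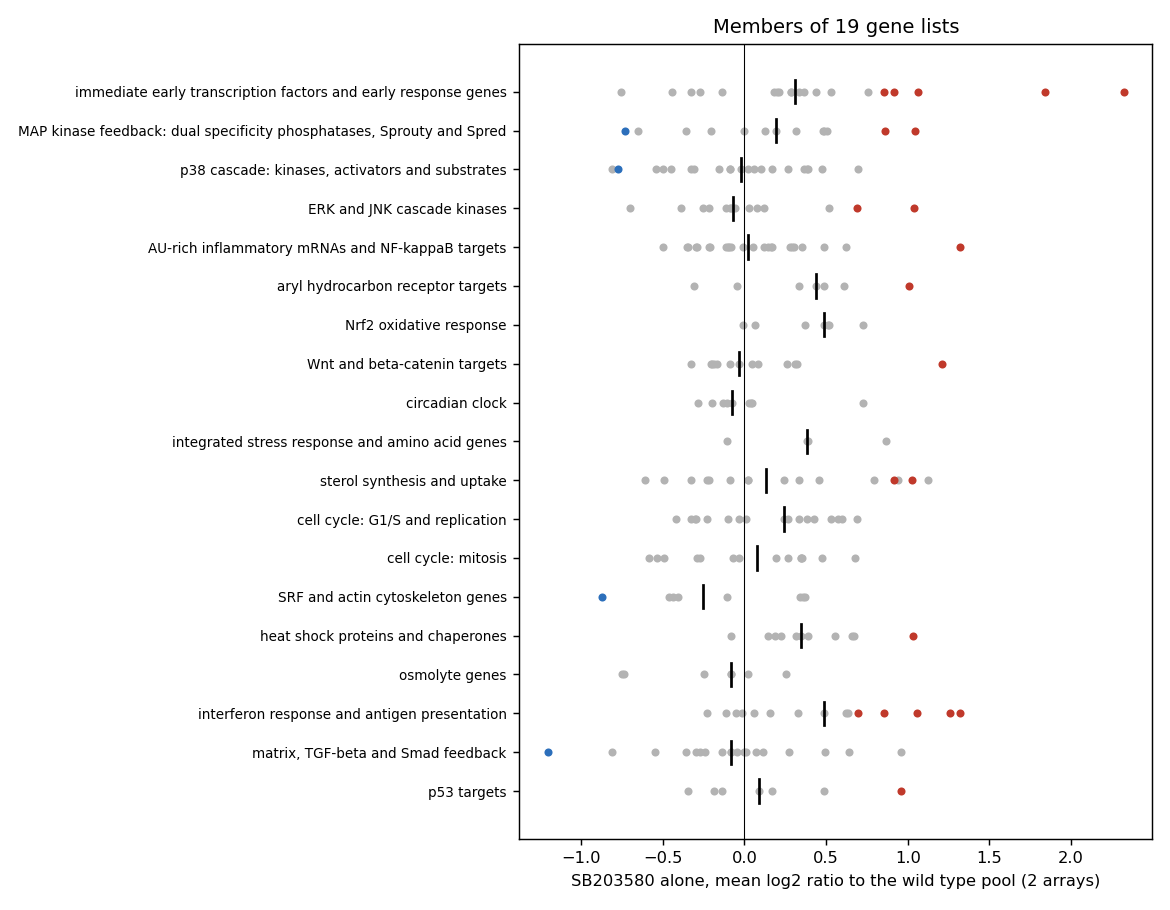
Mean log2 ratio to the wild type pool over the 2 arrays with SB203580 alone (x axis) for the tested members of 19 gene lists (rows); red points were raised, blue points lowered, grey points not called, and black bars are the list medians. Fos and Jun stand apart at the right of the early response row, and the p38 cascade row is centred near 0.

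The 15 raised genes with the largest ratio on the lower of their 2 arrays had means from 1.35 to 2.71 on the log2 scale. The highest was 4930448D08Rik (2.73 and 2.68), whose Cy3 signal was well above background on 1 of the 2 arrays. Its call was lost with normexp, with the series matrix and when either array was left out. After Fos and Jun came A730046J19Rik at 1.76 and 1.58 (mean 1.67 ± 0.12, SD, n = 2, adjusted p = 1.5e-05 from limma). Lrig1, which restrains receptor tyrosine kinases, had 1.95 and 1.47, Klhl21, an adaptor of a ubiquitin ligase in mitosis, 1.92 and 1.45, and Rab3a, a GTPase of vesicle release, 1.79 and 1.42. Rrm2b, the p53-inducible subunit of ribonucleotide reductase, had 1.86 and 1.41 (mean 1.64 ± 0.32, SD, n = 2, adjusted p = 2.36e-05 from limma). Trim21, a ubiquitin ligase that binds antibody, had 1.81 and 1.29. The remaining genes of the 15 were B230342M21Rik (N4bp2l1 in RefSeq), D5Ertd40e (Ficd), AU021768, 2900019G14Rik (Slc1a2), C630002B14Rik (Nt5dc3) and 1700013G20Rik (Ttc32). In 14 of the 15 the larger ratio was on array 1. Trim21, D5Ertd40e, AU021768, 2900019G14Rik and B230342M21Rik lost their calls without array 1. The call of 2900019G14Rik was also lost with normexp, and that of B230342M21Rik without array 2.

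The 15 lowered genes chosen in the same way had means from -2.66 to -1.79. On the arrays without SB203580 their median ratios lay between -2.81 and -0.59. Against the stress groups without SB203580, 12 of the 15 were tested, and none differed at an adjusted p under 0.05 (limma). Against untreated p38α-/- MEFs 14 were tested, and none differed there either. Foxe1, a forkhead factor of thyroid development, had -2.52 and -2.79 (mean -2.65 ± 0.19, SD, n = 2, adjusted p = 6.03e-05 from limma), with Cy5 well above background on 1 of the 2 arrays. Ahnak, a very large scaffold protein beneath the plasma membrane, had -3.29 and -1.98, read by 2 probes with means of -2.87 and -2.40, and lost its call without array 1. Atoh7, a factor of retinal ganglion cells, was not well above background in Cy5 on either array and was at least 3.10-fold lower than the pool (adjusted p = 0.00024 from limma), a call that was lost with normexp. Copa, a coat protein of vesicles in the Golgi, had -2.33 and -1.80, from 1 of its 2 probes, the other being an outlier on both arrays. Its call was lost with the series matrix, when outliers were kept and when either array was left out. The others were Doc2g, A230059G12Rik, Cutl2 (Cux2), Nkx2-4, A930027G11Rik (Gnas in RefSeq), A930006D11 (Zfp385c), Gm1961 (Vmn2r43), Serpinb9c, 1700122O11Rik, 2900026A02Rik and 2810011L19Rik (Tunar). Doc2g, A230059G12Rik, Nkx2-4, A930006D11, Gm1961, 1700122O11Rik, 2900026A02Rik and 2810011L19Rik lost their calls without array 1. Nkx2-4 also lost its call without array 2, and 2810011L19Rik with normexp.

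All groups share the pool, so each group's own ratios for the called genes are given side by side without a test. Not every gene was measured in every group, and 412 to 456 raised and 247 to 360 lowered genes entered. For the raised genes the median was 0.94 with SB203580 alone, between 0.34 and 0.54 in the 5 stress groups without SB203580, between 0.44 and 0.63 in the 5 with it, and 0.49 in untreated p38α-/- MEFs. For the lowered genes it was -0.95, between -0.74 and -0.47, between -0.78 and -0.55, and -0.61, in the same order. Over all tested genes the median lay between 0.01 and 0.03 in every group. The genes called with SB203580 alone thus stood away from the pool in cells that never met the inhibitor as well, with medians nearer to 0. Single genes differed from these medians. Foxe1, at a mean of -2.65 with SB203580 alone, had a median of -2.86 over the 9 stress arrays that measured it and a mean of -2.66 in untreated p38α-/- MEFs. Ahnak, at -2.63 with SB203580 alone, had a median of -1.49 over the 10 stress arrays and a mean of -1.45 in the knockout.

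**Figure D3:**
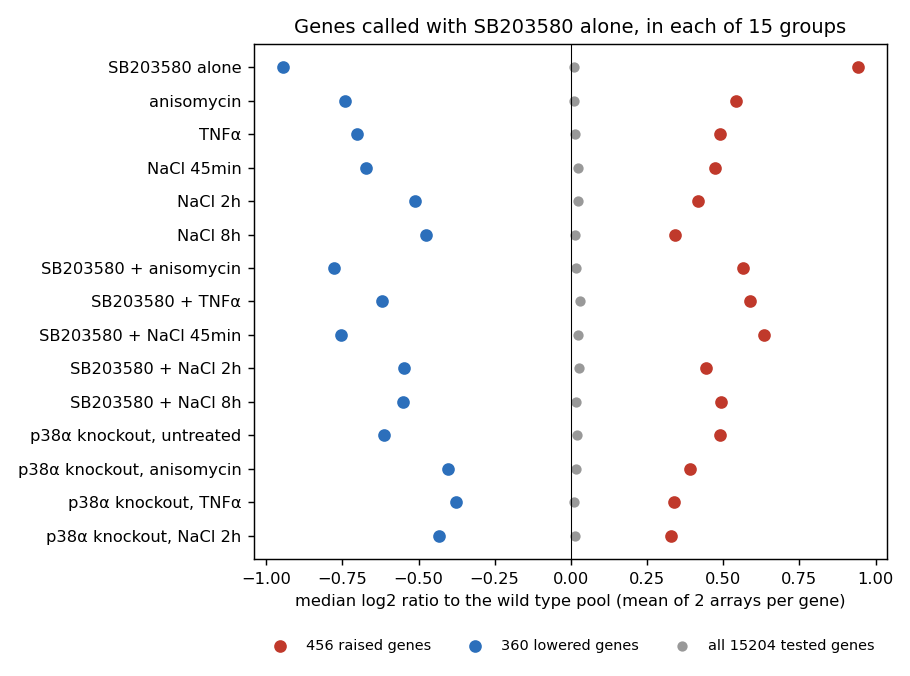
Median log2 ratio to the wild type pool (x axis) of the 456 raised genes (red), the 360 lowered genes (blue) and all 15204 tested genes (grey) in each of the 15 groups (rows). The red and blue points lie on either side of 0 in every row and farthest from it with SB203580 alone, whose arrays chose the genes, and a group's point covers the genes measured on both of its arrays.

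To remove what all arrays share through the pool and the dyes, the SB203580 arrays were set against the mean of the 5 stress groups without SB203580. This difference compares the inhibitor with stressed rather than with untreated cells. Of 11328 genes tested, 169 were higher with SB203580 alone (1.49%) and 58 lower (0.512%, limma). Of the genes raised against the pool 394 were tested and 72 were also above the stress groups, with differences from 0.45 to 2.27. Of the lowered genes 209 were tested and 10 were also below them, from -2.14 to -0.61. Both comparisons use the same SB203580 arrays, so this overlap is a description. All 82 differences had the same sign within each scan batch, which the choice of genes favours, since both arrays had to agree against the pool. With the replicate number as a block the counts rose to 388 and 166, without array 2 they were 483 and 225, and without array 1 they were 1 and 2.

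A730046J19Rik is one of these 72 genes whose SB203580 arrays lay above every stress array. It had 1.76 and 1.58 with SB203580 alone, between -0.73 and 0.89 on the 10 stress arrays and -0.61 and -0.59 in the untreated knockout. The difference from the stress groups was 1.40 ± 0.17 (SE, adjusted p = 0.00129 from limma), 1.53 within the first scan batch and 1.28 within the second. Stat2 showed the same order at a smaller size, with 0.88 and 0.83 against a range from -0.28 to 0.24 on the stress arrays, a difference of 0.91 ± 0.13 (SE, adjusted p = 0.00251 from limma). Rrm2b differed by 1.12 ± 0.18 (SE, adjusted p = 0.00571 from limma), and its stress arrays ranged from -0.73 to 1.08, the lowest being those of NaCl for 8 h. Trim21 differed by 1.30 and Rab3a by 1.27, and in neither did the SB203580 arrays overlap the stress arrays. Each of these 5 calls was lost when array 1 was left out.

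Arrdc3, an arrestin-domain adaptor of receptor degradation, had the largest difference, 2.27 ± 0.37 (SE, adjusted p = 0.00571 from limma). Its SB203580 arrays disagreed, at 2.79 and 0.93, and overlapped the stress arrays, and both its calls were lost without array 1. The stress arrays reached 2.05 with anisomycin and were as low as -2.28 with NaCl for 8 h. The following genes among the 72 were picked after their values were seen. D630023B12Rik and A730024A03Rik, listed in RefSeq as Fnip2 and Fnip1, encode the partners of folliculin in nutrient sensing at the lysosome, and had 1.60 and 1.16, and 0.72 and 1.33, with differences of 0.89 and 0.75. Prkar2b, a regulatory subunit of protein kinase A, had 1.13 and 1.32 and a difference of 0.58. Bid, a BH3-only protein of apoptosis, had 1.27 and 0.77, Mlycd, which degrades malonyl-CoA, 1.49 and 0.62, and Amacr, a racemase of branched-chain fatty acid oxidation, 1.15 and 0.71. Bid and Mlycd lost their calls against the pool without array 1, and Mlycd also with normexp. Dhcr7, named above, was also among them with a difference of 1.00.

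The 10 genes lowered against the pool and below the stress groups were Spry4, Kitl, Cdh2, Thbs1, Mef2a, Adamts5, 2310002J15Rik, Prlpb, 9930032E11Rik and D030035A18Rik. Cdh2, which encodes N-cadherin, had -1.36 and -1.42 with SB203580 alone, a range from -0.90 to 0.19 on the stress arrays, and a difference of -0.99 ± 0.22 (SE, adjusted p = 0.0258 from limma). This call was lost under normexp correction and when either array was left out, whereas the call against the pool was kept. A further probe of Cdh2 was an outlier on both arrays and stood at -0.25 and -0.47. Kitl, the ligand of the receptor Kit, had -0.87 and -0.98 and a difference of -1.07, but its 2 probes disagreed, the second being above the pool at 0.53 on array 1 and an outlier on array 2. Its call against the pool was lost with normexp, with the series matrix and with outlier spots kept. Kitl was as low in the untreated knockout, at -1.32 and -1.07. Spry4 had a difference of -1.21 ± 0.27 (SE, adjusted p = 0.0258 from limma), its stress arrays reaching 2.21 with anisomycin, and lost this call when either array was left out or outlier spots were kept. The last 3 genes named in the list of 10 were not well above background in Cy5 on either array, with bounds of at least 1.21-fold for Prlpb, 1.90-fold for 9930032E11Rik and 1.75-fold for D030035A18Rik below the pool. Against the pool, Adamts5 lost its call with normexp, the series matrix, dim spots removed, outlier spots kept and without either array. That of 2310002J15Rik was lost with normexp and with dim spots removed, and those of Thbs1, Mef2a, Prlpb, 9930032E11Rik and D030035A18Rik with normexp and without array 1. Prlpb also lost its call with the series matrix. Jun went the other way, raised against the pool and lower than the stress groups by 1.29 (SE 0.24, adjusted p = 0.0116 from limma), with stress arrays from -0.46 to 6.21, and kept this call when either array was left out.

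**Figure D4:**
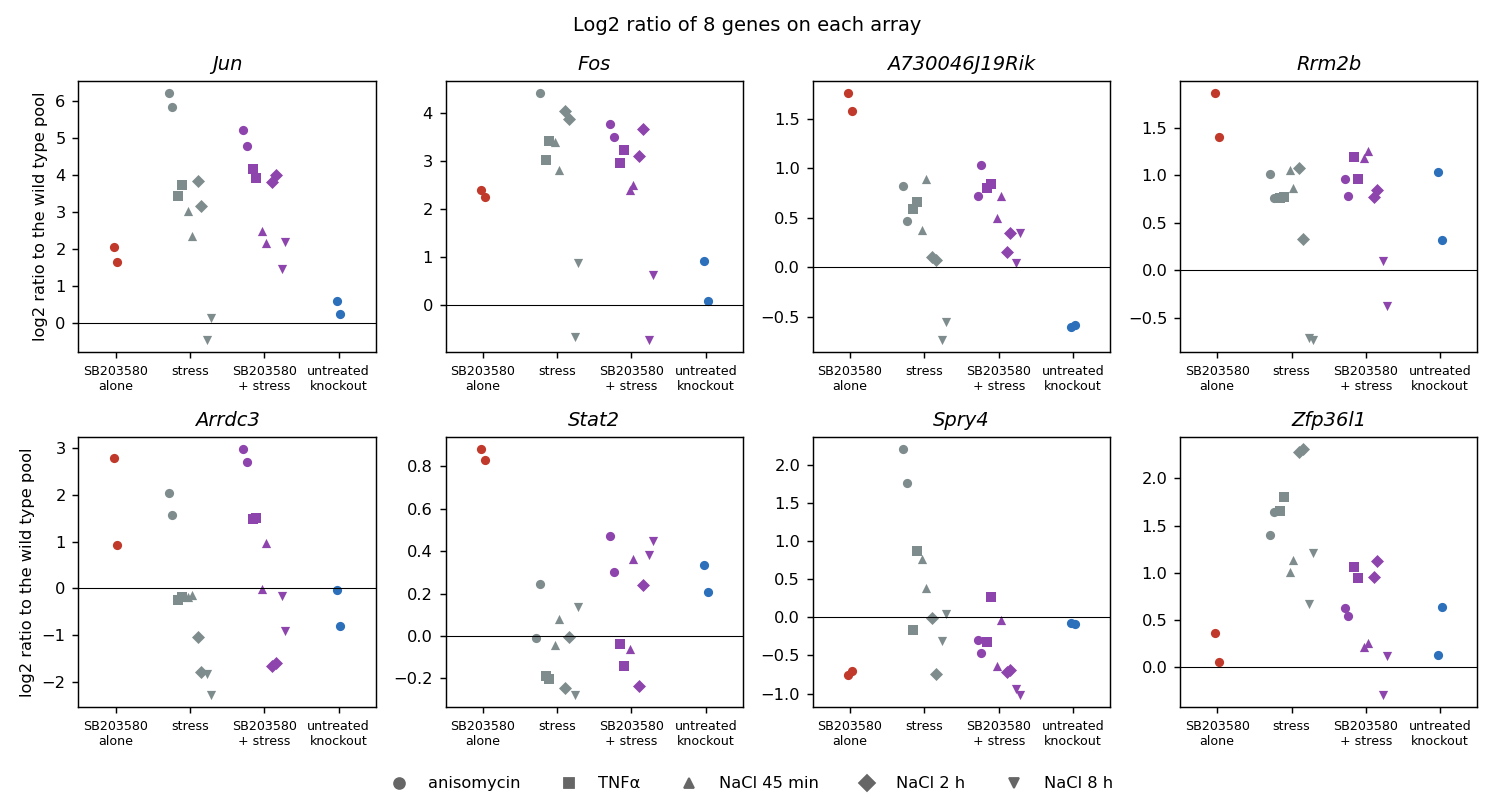
Log2 ratio to the wild type pool (y axis) of 8 genes on every measured array with SB203580 alone (red), with stress (grey), with SB203580 and stress (purple) and of untreated p38α-/- MEFs (blue); symbols give the stress, and circles are also used for the groups without stress. The SB203580 arrays of A730046J19Rik, Rrm2b and Stat2 lie above all stress arrays, and those of Spry4 at their lower end, where the lowest stress array is -0.75.

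Whether SB203580 changed the same genes under stress was read from arrays other than those of SB203580 alone. The effect was the mean over the 5 stresses of the ratio with SB203580 minus the ratio without it, in which pool and dyes cancel. Of 10782 genes tested, 1 was higher with SB203580 (0.00927%) and 7 were lower (0.0649%, limma). With the replicate number as a block these counts were 6 and 19, and with outlier spots kept 3 and 23. None of the 380 tested genes raised by SB203580 alone was called higher, and 1 was called higher in the fit with the replicate block. At an unadjusted p under 0.05 (limma), 51 of the 380 were higher, against 272 of all 10782 genes. Of 177 tested lowered genes, 1 was called lower, Spry4. At an unadjusted p under 0.05 (limma), 8 of the 177 were lower, against 250 of all 10782 genes. The median effect was 0.09 for the raised, -0.03 for the lowered and 0.01 for all genes. Spry4 fell by 0.96 on the log2 scale (SE 0.15, adjusted p = 0.0213 from limma), which was -0.46 and not called when outlier spots were kept. Rab3a had 0.65 and Arrdc3 0.94, with adjusted p = 0.175 for either (limma). A730046J19Rik had 0.28, Rrm2b 0.25 and Stat2 0.22. Spry4 and these genes were called above against the same stress arrays without SB203580, which favours an effect of the same sign here.

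The other genes that SB203580 lowered under stress were Zfp36l1, Btg2, Hs3st1, Bdnf, Trib1 and Ccnl1, and the 1 that it raised was the RNA helicase gene Skiv2l. None of these 7 was called with SB203580 alone. Zfp36l1, which binds AU-rich mRNAs and speeds their decay, had 0.36 and 0.05 with SB203580 alone, a range from 0.67 to 2.31 on the stress arrays and from -0.30 to 1.12 with stress and SB203580. Its effect under stress was -0.96 ± 0.10 (SE), and the difference of that effect from SB203580 alone was -1.17 (adjusted p = 0.00179 from limma). Hs3st1, a sulfotransferase of heparan chains, had 0.43 and 0.24 alone, an effect of -0.86 ± 0.10 (SE) under stress and a difference of -1.19 (adjusted p = 0.00179 from limma). Btg2, an early gene that restrains proliferation, had -0.18 and -0.09 alone and -1.04 under stress, and the difference of -0.90 missed the threshold (adjusted p = 0.0712 from limma). This -1.04 is a mean over effects of unlike size. With anisomycin Btg2 had 4.35 and 5.26 without SB203580, and 1.63 and 1.47 with it. With TNFα it had 1.58 and 3.35, and 1.15 and 1.74. Its NaCl arrays ranged from -0.41 to -0.05 without SB203580 and from -0.76 to -0.25 with it. Bdnf, a neurotrophin, had -0.61 and -0.51 alone and -0.95 under stress, with a difference of -0.39 (adjusted p = 0.455 from limma). Skiv2l had -0.38 and -0.34 alone and 0.32 under stress.

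Across all genes the effect under stress minus the ratio with SB203580 alone was tested for 10649 genes, of which 410 were higher (3.85%) and 747 lower (7.01%, limma). Without array 1 these counts were 10 and 13, with outlier spots kept 4371 and 1712, and with the replicate block 869 and 1518. Of the genes raised by SB203580 alone 268 of 380 tested were lower in this difference, and of the lowered genes 133 of 177 were higher. The rule that chose these genes used the ratio subtracted here, so these shares are a description, and pool and dyes remain in that ratio. Jun differed by -1.56 (adjusted p = 0.00195 from limma), with an effect of 0.29 under stress. This 0.29 is a mean over effects of unlike direction. They were -1.04 with anisomycin and 0.45 with TNFα, and -0.37, 0.40 and 1.99 with NaCl for 45 min, 2 h and 8 h. A730046J19Rik differed by -1.39, Rrm2b by -1.39, Prkar2b by -1.22 and Stat2 by -0.63. For Arrdc3, at -0.91, and Spry4, at -0.23, the difference was not past the threshold (adjusted p = 0.143 and 0.631 from limma).

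Inhibition and deletion of p38α were compared by setting SB203580 alone against untreated p38α-/- MEFs. Of 14370 genes tested, 127 were higher with SB203580 (0.884%) and 42 lower (0.292%, limma). Array 1 of the knockout was scanned with array 2 of SB203580 alone, and the remaining arrays of this comparison were scanned on days of their own. Differences between the cell lines cannot be told apart from differences between inhibitor and deletion. A730046J19Rik was higher by 2.27 (adjusted p = 8.95e-06 from limma) and Arrdc3 by 2.28 (adjusted p = 0.0225 from limma). Jun, at 0.60 and 0.22 in the knockout, was higher by 1.43 (adjusted p = 0.0262 from limma), and Tiparp, at 0.10 and -0.29 there, by 1.10 (adjusted p = 0.00563 from limma). Within the shared scan day the difference was 2.19 for A730046J19Rik, 0.97 for Arrdc3, 1.04 for Jun, 0.68 for Tiparp and -1.39 for Pttg1. Fos was higher by 1.82, which missed the threshold (adjusted p = 0.0723 from limma). Pttg1, the securin that holds sister chromatids together, was the raised gene that stood lower than the knockout, at 0.73 and 0.59 with SB203580 and 1.98 and 2.00 in the knockout, a difference of -1.33 (adjusted p = 4.42e-06 from limma). With the replicate block 357 genes were higher and 203 lower, and without array 1 the counts were 10 and 14, against 236 and 126 without array 2.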

How the data were processed

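Per the file headers, the authors extracted the arrays with Agilent Feature Extraction 8.1.1.1, whereas the methods and the submitters' processing notes name version 9.1. The deposited intensities had spatial detrending and LOWESS dye normalization, and the deposited log10 ratio of Cy5 to Cy3 was converted to log2. The authors also deposited a series matrix, whose log2 scale was judged from its values. Control spots and spots marked as outliers were left out, and log2 ratios were averaged per array, first over the spots of each probe and next over the probes of each gene. limma 3.58.1 in R 4.3.3 fitted 15 group means to the 30 arrays, with Benjamini-Hochberg adjustment across the genes measured on every array compared. The pool counts as 1 control sample, tests against 0 leave out its own spread, and the labels do not say whether the 2 arrays came from separate cultures, so p-values measure the spread between arrays.

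Named are Mapk14, members of the fixed gene and marker lists, and per direction the 15 called genes with the largest smaller ratio among those well above background on both arrays (Cy5 for raised, Cy3 for lowered), and those of them called the same way under stress. Genes named for the other comparisons were picked after their values were seen. Members and lists were chosen with earlier results of these data known. A bound sets the mean in the bright channel against the lowest signal well above background in the other, per channel after Aquantile normalization, and is open to dye bias. Of 21689 genes, 12584 had the symbol of the RefSeq table, 5088 were matched by accession and 2277 by synonym. Python 3.11.15 with pandas 2.3.3 was used. The fit was tested on simulated data with independent noise and no missing values, so that test does not cover correlated arrays or missing spots.

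The difference between array 1 and array 2 was correlated between groups by more than 0.1 for all 55 pairs of wild type groups (median 0.46) and all 6 pairs of knockout groups, so replicate numbers pair arrays within a genotype, where they follow the scan batches.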

Additional observations from a re-analysis of the deposited data

Results flagged for a closer look

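The effect of SB203580 under stress and its effect without stress were tested against each other, and 410 genes were higher and 747 lower under stress than without it (limma, adjusted p under 0.05). Without array 1 of SB203580 alone the counts were 10 and 13, and with outlier spots kept 4371 and 1712. The ratio without stress keeps what the pool and the dyes contribute, and this part was not tested. Among genes raised by SB203580 alone, the difference was -1.56 on the log2 scale for Jun, -1.39 for A730046J19Rik, -1.39 for Rrm2b and -0.63 for Stat2. Among genes that SB203580 lowered under stress and that were not called without stress, it was -1.17 for Zfp36l1 and -1.19 for Hs3st1. These 6 genes were chosen by one or the other of the values subtracted, which favours a negative difference, so their differences are a description.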

How the results depend on the processing

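No gene was called in the opposite direction under any alternative, among the 456 raised and 360 lowered genes and the 10 alternatives for which shared calls were counted. With a replicate block, with wild type arrays only or with an array left out, the ratios themselves were unchanged. An opposite call could not arise in those fits, and the other alternatives processed the same 2 arrays again. The replicate block kept all 456 and 360 calls, and no named gene lost its call with SB203580 alone. Klf2, an early response gene at 0.66 and 0.86, was not called (adjusted p = 0.0519 from limma) and was called with the block (adjusted p = 0.0128 from limma). Of 125 named called genes, 78 kept their call with normexp and loess, 110 with outlier spots kept, 116 without array 2 and 43 without array 1. The cause of these losses was not tested.

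The count of raised genes was 691 with the series matrix, 869 with single probes in place of genes (chosen after seeing the data), 49 at 2-fold on both arrays, 2242 with the adjusted p alone, 65 at a mean of 2.5-fold without a test, and 115 to 2258 when an array was left out. The count of lowered genes was 118 with normexp, 1007 with outliers kept, 680 with single probes, 95, 1800 and 79 under the same 3 rules, and 134 to 1832 when an array was left out. Of 360 lowered genes 117 were among those of normexp, and of 456 raised genes 245.

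Raised genes called higher under stress numbered 0, and 1 with the replicate block. Lowered genes called lower under stress numbered 1, and 0 with normexp, 2 with outliers kept, and 0 to 0 when an array was left out of the choice. The effect over 5 stresses gave 2 genes higher with dim spots removed, 3 with outliers kept and 6 with the replicate block, and 14 lower with normexp, 23 with outliers kept and 19 with the block.

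The remaining alternatives were added after seeing the data. SB203580 alone minus the stress groups gave 257 genes higher with normexp, 254 with outliers kept, 388 with the replicate block and 1 to 483 when an array was left out, and 168 lower with outliers kept, 166 with the block and 2 to 225 when an array was left out. Against the knockout, the block gave 357 higher and 203 lower, and leaving out an array 10 to 236 and 14 to 126. For the effect under stress minus SB203580 alone, 4371 were higher with outliers kept, 869 with the block and 10 to 739 with an array left out, and 1137 were lower with normexp, 1712 with outliers kept, 1518 with the block and 13 to 1207 with an array left out. With 1 array left, its spread was taken from the remaining groups. Signal over background limits the lowered genes, of which 20 had no Cy5 signal well above background on either array.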
